A study of Homo sapiens with 6 samples.

Results

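The genes described here write, maintain and remove methylation of cytosine in DNA: the methyltransferases DNMT1, DNMT3A and DNMT3B, the ubiquitin ligases UHRF1 and UHRF2, the dioxygenases TET1, TET2 and TET3, and the glycosylase TDG. They were taken by symbol from the deposited gene table, which held a row for each of the 9 among its 61806 genes. RNA had been sequenced from A549, a human lung adenocarcinoma cell line whose genotype the labels give as WT, in 3 libraries after Japoflavone B and 3 after the solvent DMSO. The series title calls Japoflavone B a PARP1 inhibitor. Cells were seeded for 24 h and then treated for 24 h, with Japoflavone B at a dose given as 40 without a unit. The labels title the treated libraries LE-532 without saying what the code stands for. They do not state whether the libraries of a group are separate cultures, and the p-values therefore speak to the spread among the 6 libraries, which may be technical.

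DNA methylation in mammals sits mostly on the cytosine of CpG dinucleotides and is copied at each round of DNA replication, when UHRF1 binds the hemimethylated daughter duplex and recruits DNMT1. DNMT3A and DNMT3B set methylation on unmethylated sites, whereas the TET enzymes oxidise methylcytosine stepwise and TDG cuts out the most oxidised forms so that repair can put back plain cytosine. UHRF1 and DNMT1 are known for expression tied to S phase, and lung cancers often carry altered promoter methylation. The RNA levels reported here are not measurements of methylation.

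Library totals were 15733769 to 19822366 gene counts after Japoflavone B and 15298531 to 21744407 after DMSO. Mitochondrial genes took 8.33% to 8.58% of counts after Japoflavone B and 3.97% to 4.70% after DMSO. Of 6 airway and lung epithelial markers, 5 fell, against 35.4% of all genes tested, and EPCAM did not pass. The median log2 fold change of the 6 markers was -1.04. Their summed level was 562 to 596 FPKM (fragments per kilobase of exon, scaled by the total count of the library) after Japoflavone B and 1148 to 1317 FPKM after DMSO. KRT7, the most abundant, averaged 360 FPKM after Japoflavone B and 515 FPKM after DMSO, and KRT8, KRT18 and CDH1 were at -1.51, -1.73 and -1.85 log2. Of 7 markers of alveolar type II cells, SFTPA1, SFTPB, SFTPC and NKX2-1 had at most 5 counts summed over either group. Among the other 3, ABCA3 rose to 22.1 FPKM after Japoflavone B, against 10.2 FPKM after DMSO, LAMP3 rose by 1.33 log2 on 51 counts against 24, and NAPSA did not pass. LAMP3 reached the count filter only with its treated libraries, so its call adds no separate support. Of the markers of other cells, 1 of 5 leukocyte genes, 0 of 4 endothelial genes and 4 of 5 fibroblast genes had enough counts to be tested. Their summed levels were 0.27 to 0.51, 0 to 0.03 and 0.67 to 0.85 FPKM after Japoflavone B, against 2.12 to 3.02, 0.02 to 0.07 and 4.76 to 5.36 FPKM after DMSO. Most of the leukocyte sum was CD14, at 0.313 FPKM after Japoflavone B and 2.53 FPKM after DMSO. Most of the fibroblast sum was COL1A1, at 0.473 and 4.64 FPKM. CD14, COL1A1 and COL3A1 passed as lower, and the fibroblast genes COL1A2 and PDGFRB did not pass. CD14 and COL3A1 had 27 and 29 counts over the treated libraries, against 237 and 71 over the DMSO libraries. Both reached the count filter only with their DMSO libraries, so their calls add no separate support. The markers CD3E, VWF and KDR had no count in any library. The part of these differences in the results below was not tested.

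All 9 genes had enough counts to be tested. After Japoflavone B, 6 of them fell (UHRF1, DNMT3B, TET1, TET3, TET2 and DNMT1), 2 rose (UHRF2 and DNMT3A), and TDG did not pass (edgeR quasi-likelihood test on counts, Benjamini-Hochberg adjustment over all genes tested, threshold 0.05). The treatment moved a large part of the transcriptome: of 16082 genes tested, 70% passed in either direction, 34.7% higher and 35.4% lower, so that 8 calls among 9 genes are to be read against that share. A fall of at least 2-fold was called for 4 of the 9 genes and for 15% of all genes tested, and a rise of that size for 0 of 9 and for 9.67% of all genes. The ranges of FPKM did not overlap between the groups for 8 of the 9 genes, and for 71.6% of all genes tested. For 2 of the 9 all treated libraries were above all DMSO libraries, and for 6 below, against 30.9% and 40.7% of all genes. The median log2 fold change was -0.94 over the 9 genes and -0.00 over all genes tested.

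**Figure D1:**
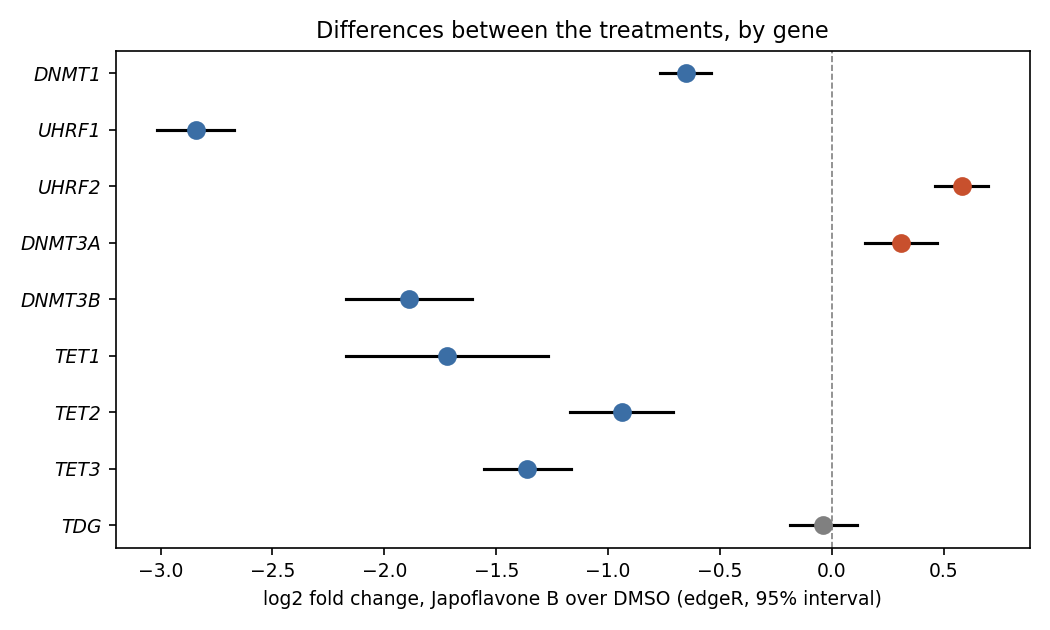
Log2 fold change of each gene in Japoflavone B over DMSO libraries (x axis) with its 95% interval from the edgeR fit, 3 libraries a group. Blue points passed as lower, red points passed as higher and the grey point did not pass. UHRF1 lies farthest to the left at -2.84, UHRF2 farthest to the right at 0.58, and TDG at -0.04.

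Of the genes that maintain methylation, UHRF1 showed the largest fall among the 9. UHRF1 (ENSG00000276043, chromosome 19, 4903080 to 4962154, plus strand, GRCh38) reads hemimethylated CpG and modified histone H3 and ubiquitinates H3 to bring in DNMT1. It had 1.77, 1.63 and 1.83 FPKM in the Japoflavone B libraries, against 13.6, 13.91 and 12.95 FPKM in the DMSO libraries. The treated libraries were all far below the solvent libraries, with no overlap. The gene was 7.18-fold lower, a log2 fold change of -2.84 ± 0.08 (SE; edgeR adjusted p = 1.77e-21), and 1.18% of all genes tested had a lower fold change. The counts behind these values were 132 to 181 after Japoflavone B and 1019 to 1556 after DMSO.

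DNMT1 (ENSG00000130816, chromosome 19, 10133342 to 10231286, minus strand) is the enzyme that methylates the daughter strand. It had 6.76, 6.19 and 6.94 FPKM after Japoflavone B, against 11.14, 11.2 and 11.28 FPKM after DMSO. The groups did not overlap, and the DMSO libraries lay closer together than the treated ones. DNMT1 was 1.57-fold lower, a log2 fold change of -0.65 ± 0.05 (SE; edgeR adjusted p = 2.36e-11). S1PR2, a receptor gene that lies within the deposited span of DNMT1 on the same strand, had 231 counts over the treated libraries and 131 over the DMSO libraries, against at least 1497 and 2653 counts for DNMT1 in each library of those groups.

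UHRF2, the paralog of UHRF1 that shares its domain order and does not replace it in maintenance methylation in mouse cells, moved the other way. UHRF2 (ENSG00000147854, chromosome 9, 6413151 to 6507054, plus strand) had 11.38, 10.95 and 10.69 FPKM after Japoflavone B, against 8.27, 7.82 and 7.6 FPKM after DMSO. Every treated library was above every DMSO library. The gene was 1.49-fold higher, a log2 fold change of 0.58 ± 0.06 (SE; edgeR adjusted p = 6.98e-10).

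The promoters of the maintenance genes were compared in letters, a choice made after their changes in level were seen. UHRF1 and DNMT1 had fallen and UHRF2 had risen. The sequences are from RefSeq (GRCh38.p14), whose promoter table matched all 9 genes with 20 windows of 250 bases before to 50 bases after a listed start. The motifs searched on both strands for E2F factors, which drive S-phase genes, were TTTGGCG, together with TTTCGCG, together with TTTCCCG. For the CHR element, at which the DREAM complex represses cell cycle genes, they were TTTGAA, together with TTCGAA. Capitals mark E2F matches in 100 bases at the start, shown 5′ to 3′ on the strand of the gene: UHRF1 at chr19:4909401-4909500, DNMT1 at chr19:10194948-10195047 and UHRF2 at chr9:6413099-6413198.
UHRF1: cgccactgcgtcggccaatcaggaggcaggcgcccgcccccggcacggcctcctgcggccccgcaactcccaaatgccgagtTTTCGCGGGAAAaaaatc
DNMT1: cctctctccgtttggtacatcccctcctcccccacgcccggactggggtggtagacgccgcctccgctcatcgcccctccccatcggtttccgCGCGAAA
UHRF2: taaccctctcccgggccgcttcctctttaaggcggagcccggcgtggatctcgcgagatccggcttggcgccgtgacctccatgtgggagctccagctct

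In the UHRF1 stretch TTTCGCG on the gene's strand overlaps with TTTCCCG on the other strand, and the pair covers the 12 bases in capitals, ending before the start. In DNMT1 the match to TTTCGCG lies on the other strand and runs across the start, so that the printed stretch ends just past it. A second UHRF1 window, with its start at position 4910144, held TTTCGCG at 160 bases before that start. No E2F match was found in the windows of the other 7 genes. Among these, DNMT3B, TET1, TET2 and TET3 also fell, UHRF2 and DNMT3A rose, and TDG did not pass. Whether matches go with changes in level was not tested. Of 35116 windows of the same length in the whole table, 7.21% held at least 1 of the E2F motifs and 16.4% at least 1 of the CHR motifs. CHR matches were found in a window of TET2, on both strands, and in a window of DNMT3A, after its start. The single window of DNMT3B belongs to a start inside the deposited span of that gene, at position 32779852, and the first start of the deposited gene was not analysed here. The same holds for DNMT1, whose window has its start at position 10194953, and for UHRF1, whose first window has its start at position 4909501. A match is a description of letters and says nothing of binding.

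The windows themselves differed in CpG, the dinucleotide on which these enzymes act. CpG occurred at 0.874 of the frequency given by base composition in the DNMT1 window, 0.877 to 1.07 in the UHRF1 windows and 0.870 in the UHRF2 window. The TET1 windows held less, 0.309 to 0.480, and the DNMT3B window 0.118. The median of all windows was 0.579.

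The de novo methyltransferases split. DNMT3B (ENSG00000088305, chromosome 20, 32762385 to 32809359, plus strand) had 0.54, 0.65 and 0.66 FPKM after Japoflavone B, against 2.63, 2.53 and 2.13 FPKM after DMSO. All treated libraries were lower than all DMSO libraries. It was 3.71-fold lower, a log2 fold change of -1.89 ± 0.14 (SE; edgeR adjusted p = 1.29e-12), on 70 to 84 counts after Japoflavone B and 224 to 379 after DMSO. On the log2(FPKM + 1) scale, which understates the change of low genes, limma gave -1.08.

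DNMT3A (ENSG00000119772, chromosome 2, 25227855 to 25342590, minus strand), the enzyme that works with DNMT3L in mouse germ cells and is often mutated in human blood cancers, had 2.32, 2.27 and 2.29 FPKM after Japoflavone B, against 2, 2.07 and 1.9 FPKM after DMSO. The treated libraries were all slightly higher. It was 1.24-fold higher, a log2 fold change of 0.31 ± 0.08 (SE; edgeR adjusted p = 0.00103). This call was lost in limma on log2(FPKM + 1) and log2(FPKM + 0.1), with adjusted p = 0.0775 and 0.077. FPKM scale by library totals, and edgeR with library totals alone kept the call, at 0.21 log2 (adjusted p = 0.0219). The cause of the loss in limma was not tested. RefSeq lists DNMT3A starts near 25342590 and farther downstream near 25252131, the sources of its long and short proteins, and gene counts do not tell these apart. The catalytically inactive partner DNMT3L had no count in any library.

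The 3 TET genes all fell. TET3 (ENSG00000187605, chromosome 2, 73984910 to 74108176, plus strand), the TET enzyme of the mouse zygote, had 1.37, 1.06 and 1.38 FPKM after Japoflavone B, against 3.8, 3.59 and 3.13 FPKM after DMSO. The groups did not overlap. TET3 was 2.57-fold lower, a log2 fold change of -1.36 ± 0.09 (SE; edgeR adjusted p = 4.27e-13).

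TET2 (ENSG00000168769, chromosome 4, 105145875 to 105279816, plus strand), which unlike its paralogs has no CXXC DNA-binding domain of its own, had 0.66, 0.59 and 0.72 FPKM after Japoflavone B, against 1.47, 1.41 and 1.17 FPKM after DMSO. The groups again did not overlap. The fall was 1.92-fold, a log2 fold change of -0.94 ± 0.11 (SE; edgeR adjusted p = 2.05e-08), and limma on log2(FPKM + 1) gave -0.50. Its antisense gene TET2-AS1 had 2 counts over the treated libraries and 0 over the DMSO libraries.

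TET1 (ENSG00000138336, chromosome 10, 68560337 to 68694487, plus strand), best known from embryonic stem cells, was the lowest of the 9 genes in both groups. It had 0.22, 0.17 and 0.23 FPKM after Japoflavone B, against 0.94, 0.73 and 0.51 FPKM after DMSO. The groups did not overlap, but the DMSO libraries were spread widely and replicate 3 was closest to the treated ones. TET1 was 3.29-fold lower, a log2 fold change of -1.72 ± 0.22 (SE; edgeR adjusted p = 8.78e-08), on 26 to 41 counts after Japoflavone B and 75 to 188 after DMSO.

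TDG (ENSG00000139372, chromosome 12, 103965822 to 103988874, plus strand), which also removes thymine mispaired with guanine, had 8.32, 7.79 and 7.77 FPKM after Japoflavone B, against 9.49, 8.67 and 8.14 FPKM after DMSO. Its groups overlapped, and it did not pass, with a log2 fold change of -0.04 ± 0.07 (SE; edgeR adjusted p = 0.657). The 95% interval of the log2 fold change, -0.19 to 0.11, covers small changes in both directions. The related gene TDGP1, whose symbol marks a pseudogene, had 25 counts over the treated libraries and 23 over the DMSO libraries.

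**Figure D2:**
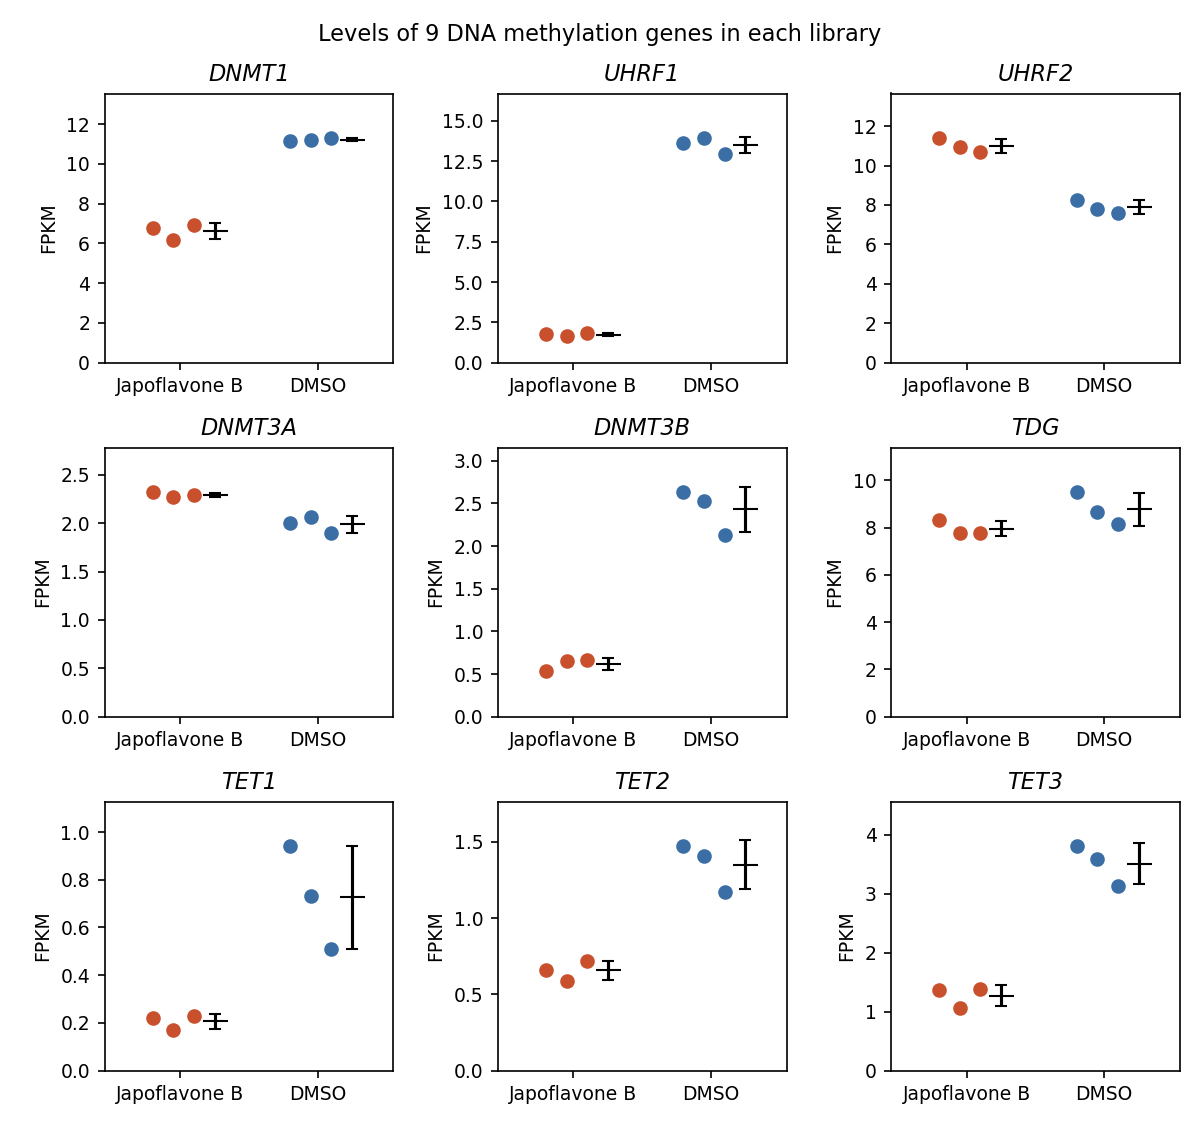
FPKM of each gene (y axis, from 0) in the 3 Japoflavone B libraries (red, left) and the 3 DMSO libraries (blue, right), with the mean and SD beside the points. The groups are apart for 8 genes and overlap for TDG, and the DMSO points of TET1 run from 0.51 to 0.94 FPKM.

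Within the DMSO group, replicate 3 had the lowest FPKM for 8 of the 9 genes, DNMT1 being the exception. Within the Japoflavone B group, replicate 2 was lowest for 6 of them. These libraries had the lowest total counts of their groups, 15298531 and 15733769. The share of all genes tested that were lowest in them was not computed, so the pattern cannot be called particular to the 9 genes. Without DMSO replicate 3 the same 8 genes passed in the same directions, with TET1 at -1.90, DNMT3B at -1.96 and UHRF1 at -2.86 log2.

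The order of the levels on the FPKM scale changed at its top. FPKM divide by the deposited exonic gene size, 15379 bases for DNMT1 and 5145 for UHRF1, so the order of genes depends on these sizes. In counts, DNMT1 was above UHRF1 in the DMSO libraries, at 3568, 3744 and 2653 against 1457, 1556 and 1019. Whether the sizes match the transcripts present was not tested. After Japoflavone B it ran UHRF2 (11.01 ± 0.348 FPKM), TDG (7.96 ± 0.312), DNMT1 (6.63 ± 0.392), DNMT3A (2.29 ± 0.0252), UHRF1 (1.74 ± 0.103), TET3 (1.27 ± 0.182), TET2 (0.657 ± 0.0651), DNMT3B (0.617 ± 0.0666) and TET1 (0.207 ± 0.0321; SD, n = 3). The neighbours TET2 and DNMT3B overlapped in their ranges there, and no other neighbours did. After DMSO it ran UHRF1 (13.5 ± 0.490 FPKM), DNMT1 (11.2 ± 0.0702), TDG (8.77 ± 0.680), UHRF2 (7.90 ± 0.342), TET3 (3.51 ± 0.343), DNMT3B (2.43 ± 0.265), DNMT3A (1.99 ± 0.0854), TET2 (1.35 ± 0.159) and TET1 (0.727 ± 0.215; SD, n = 3). There only TDG and UHRF2 overlapped among neighbours. In FPKM, UHRF1 thus stood above every other gene of the 9 in the DMSO libraries and below 4 of them in the treated libraries.

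Ratios within a library do not depend on how libraries are scaled, and 5 of them were compared. UHRF1 over UHRF2 was 0.156, 0.149 and 0.171 in the Japoflavone B libraries, against 1.64, 1.78 and 1.70 in the DMSO libraries. This ratio was 10.8-fold lower after Japoflavone B, the largest difference of the 5. DNMT1 over DNMT3A was 2.91, 2.73 and 3.03, against 5.57, 5.41 and 5.94, and so 1.95-fold lower.

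DNMT3A over DNMT3B was 4.30, 3.49 and 3.47 after Japoflavone B, against 0.760, 0.818 and 0.892 after DMSO. In FPKM, DNMT3A was thus above DNMT3B in every treated library and below it in every DMSO library. In counts, not divided by gene size, DNMT3A was above DNMT3B in the DMSO libraries too, at 574, 619 and 400 against 376, 379 and 224. Among the TET genes the changes in proportion were smaller. TET3 over TET2 was 1.35-fold lower after Japoflavone B and TET1 over TET2 1.68-fold lower, a log2 difference of -0.74 that was -0.47 with 0.1 FPKM added to both genes. In none of the 5 ratios did the groups overlap, and the exact two-sided permutation test gave p = 0.1 for each, also after Benjamini-Hochberg adjustment over the 5, the smallest p that 3 against 3 libraries allow.

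Sums over each family, added after the values were seen, show the same data as totals. Being in FPKM, the sums and the shares within them also depend on the deposited gene sizes. Both UHRF genes together had 13.15, 12.58 and 12.52 FPKM after Japoflavone B, against 21.87, 21.73 and 20.55 FPKM after DMSO. UHRF1 made up 13.7% ± 0.851 of that sum in treated libraries and 63.1% ± 0.915 in DMSO libraries (SD, n = 3). The DNMT genes together had 9.62, 9.11 and 9.89 FPKM after Japoflavone B, against 15.77, 15.8 and 15.31 FPKM after DMSO.

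The share of DNMT1 within the DNMT sum moved little, at 69.5% ± 1.31 after Japoflavone B and 71.7% ± 1.69 after DMSO, while DNMT3B took 6.47% ± 0.780 and 15.5% ± 1.44, and DNMT3A 24.1% ± 0.883 and 12.7% ± 0.348 (SD, n = 3). The TET genes together had 2.25, 1.82 and 2.33 FPKM after Japoflavone B, against 6.21, 5.73 and 4.81 FPKM after DMSO. TET3 was the main TET transcript in both groups, with 59.5% ± 1.34 and 63.0% ± 1.96 of the sum (SD, n = 3). The groups did not overlap in any of the 11 sums and shares compared, each with an exact two-sided permutation p = 0.1, the smallest possible, and the same after Benjamini-Hochberg adjustment over the 11.

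**Figure D3:**
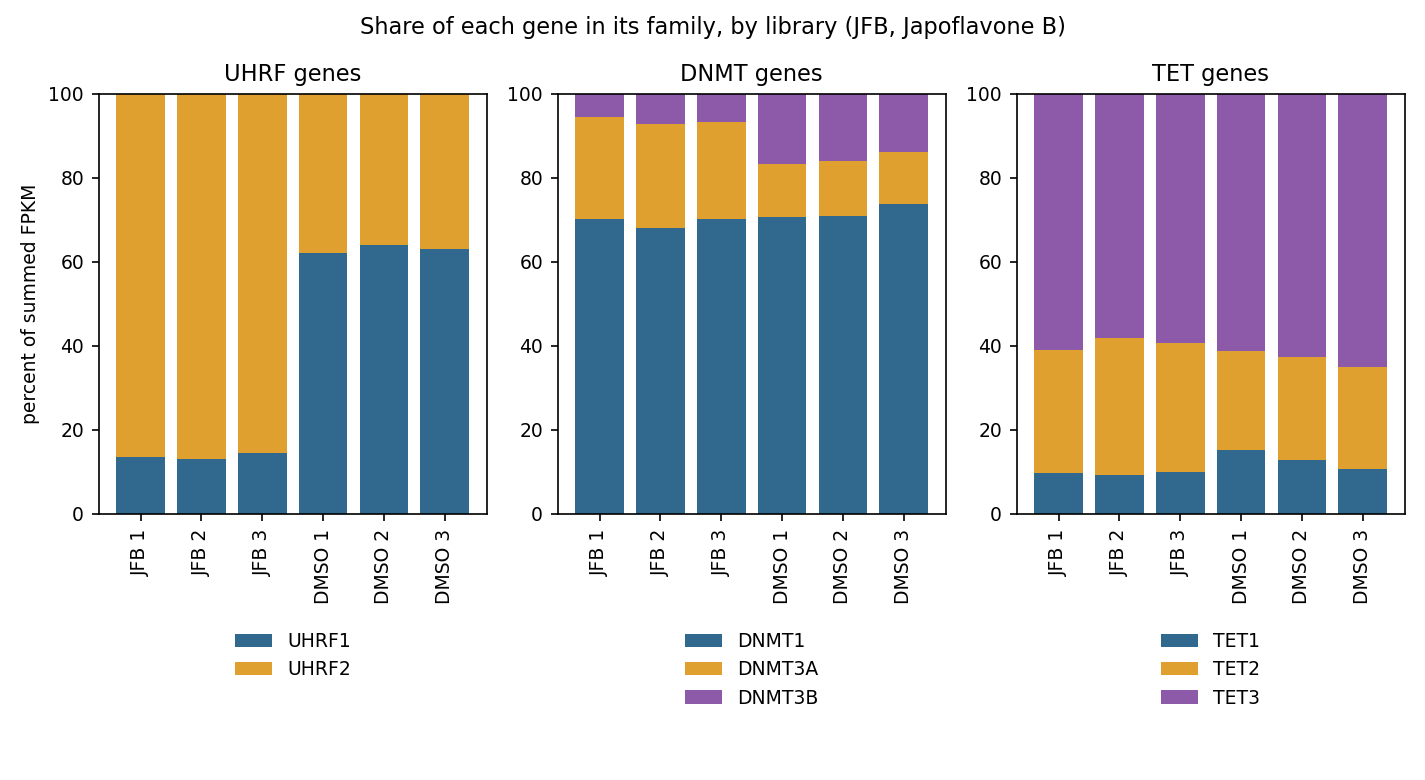
Percent of the summed FPKM of the UHRF, DNMT and TET genes held by each gene (y axis), with a bar for each library, Japoflavone B on the left and DMSO on the right. UHRF1 holds 13.0% to 14.6% of the UHRF sum in treated libraries and 62.2% to 64.0% in DMSO libraries, and within the DNMT sum DNMT3B holds less and DNMT3A more in treated libraries.

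The genes whose profiles lay nearest to each member were found by Euclidean distance between log2 CPM (counts scaled by library total and trimmed-mean factor) over the 6 libraries, each less its own mean. With 2 groups of 3, such likeness is mostly a like difference between groups. Nearest to UHRF1 were the splicing factor gene SRSF2, the P-TEFb inhibitor gene HEXIM1 and the topoisomerase gene TOP2A, at distances of 0.111 to 0.143 log2. Nearest to DNMT1 were FTSJ3, FGD5-AS1 and ICE2, and to UHRF2 they were CDC42SE1, ASCC2 and KIAA1191. DNMT3B lay nearest to CDH6, CDH1 and NIPAL2, and DNMT3A to TMEM179B and RSAD1. TET1 lay nearest to TMEM167B-DT, DHFRP1 and C1RL-AS1, TET2 to ZNF587B, IGF2BP3 and GLP2R, TET3 to CHD1L, CCDC138 and LINC01833, and TDG to CTDSPL2, CFAP418 and SLC12A2-DT.

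Genes that work with the members were described by lists, each described below with examples from its 4 most abundant tested genes. Of 16 partners of maintenance methylation, 11 fell, 2 rose and 3 did not pass, with a median log2 fold change of -0.34, where 35.4% of all genes tested were lower and 34.7% higher. PCNA, the sliding clamp that DNMT1 binds, fell by 0.87 log2, its associated factor PCLAF by 0.67 and the deacetylase gene HDAC1 by 0.29, and USP7, a deubiquitinase that binds DNMT1 and UHRF1, stood at 0.03 (adjusted p = 0.667). The other members with a fall of at least 2-fold were chosen here after their values were seen: the remodeler HELLS had 1.11 ± 0.0493 FPKM after Japoflavone B and 6.52 ± 0.278 after DMSO (SD, n = 3), its partner CDCA7 had 5.39 ± 0.530 and 19.8 ± 1.54, the ligase LIG1, a target of UHRF1 binding, had 2.80 ± 0.124 and 9.39 ± 0.675, and the chromatin assembly genes CHAF1A and CHAF1B were at -1.28 and -1.20 log2. The 2 that rose were RFC1 and ZBTB24, by 0.15 and 0.25 log2.

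Replication and G1/S genes fell with UHRF1 and DNMT1, with a median of -1.77 log2. Of 26, 25 were lower and 1, CDT1, higher, against 35.4% and 34.7% of all genes tested. The summed level of the list was 205 to 207 FPKM after Japoflavone B and 541 to 561 FPKM after DMSO. Within the list MCM7 and MCM6, subunits of the replicative helicase, fell by 1.83 and 2.63 log2, the ribonucleotide reductase subunit RRM1 by 0.50 and the thymidylate synthase gene TYMS by 0.61. The part of this lower level in the fall of UHRF1 and DNMT1 was not tested, and in bulk RNA fewer expressing cells and less RNA per cell cannot be told apart. Of 16 repressors of cell cycle genes, 5 rose, 8 fell and 3 did not pass. The higher count is near the 34.7% of all genes tested, of which 35.4% were lower. CDKN1A, the gene of the inhibitor p21, rose by 3.29 log2, the DREAM subunit gene TFDP1 fell by 0.83, and E2F4 stood at 0.05 (adjusted p = 0.478).

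Around de novo methylation, 5 of 10 tested genes were higher and 4 lower (median 0.15 log2), and the lower count is near the 35.4% of all genes tested; 34.7% of all genes were higher. The corepressor TRIM28, the most abundant, rose by 0.29, and the histone methyltransferases SETD2 and ASH1L rose by 0.43 and 0.19, while NSD2 fell by 0.52. SETD2 makes the trimethylated and NSD2 the dimethylated form of an H3 lysine, marks that DNMT3 enzymes bind.

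Partners and regulators of TET enzymes were lower or did not pass: 11 of 13 tested fell and 0 rose (median -0.44 log2). OGT, the sugar transferase that binds TET proteins, fell by 0.23, the ubiquitin ligase subunit DDB1 by 0.21 and the corepressor SIN3A by 0.39, and the cullin CUL4A stood at 0.00 (adjusted p = 0.998). In this list CXXC4, EBF1, WT1 and SALL4 averaged less than 1 FPKM in both groups and passed as lower, 3.63- to 5.40-fold. CXXC5, the other gene of the list with a fall of at least 2-fold, had 2.83 FPKM after Japoflavone B and 10.5 FPKM after DMSO (-1.79 log2). Of all genes tested, 34.7% were higher and 35.4% lower.

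Base excision genes that act beside and after TDG had 7 of 19 tested higher and 11 lower (median -0.29 log2), against 34.7% and 35.4% of all genes, so that the higher count is near the share over all genes. GADD45A, a stress-induced gene reported to aid demethylation, rose by 3.58 log2 and the endonuclease gene APEX1 by 0.35, and SUMO2, whose protein is joined to TDG, stood at 0.00 (adjusted p = 0.968). Methyl-CpG readers and their complexes were mostly higher, with 9 of 14 higher, 2 lower and a median of 0.46 log2. The zinc finger readers ZBTB4 and ZBTB38 rose by 0.57 and 0.56, the complex subunit MTA1 rose by 0.81, and MTA2 fell by 0.19. CHD4, the other gene of this list that fell, had 0.787 FPKM after Japoflavone B and 2.35 FPKM after DMSO (-1.47 log2).

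Small molecules feed these enzymes, the methyl donor S-adenosylmethionine the DNMTs and 2-oxoglutarate the TETs. Of 10 tested genes of methyl donor supply, 6 rose and 4 fell, against 34.7% and 35.4% of all genes tested. MAT2A, which makes the donor, had 19.8 ± 1.31 FPKM after Japoflavone B and 83.2 ± 5.09 FPKM after DMSO (SD, n = 3; -1.97 log2, edgeR adjusted p = 1.99e-21). AHCY, which clears its product, rose by 0.48 log2, whereas AHCYL1 fell by 0.61, and NNMT, a methyl-consuming enzyme, was lower at -2.70 log2. Around 2-oxoglutarate, 4 of 13 genes were higher and 6 lower (median -0.06 log2), against 34.7% and 35.4% of all genes. The higher count is near the share over all genes. IDH1 and IDH3B fell by 0.67 and 0.71 log2, and OGDH and SDHB rose by 0.43 and 0.36.

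**Figure D4:**
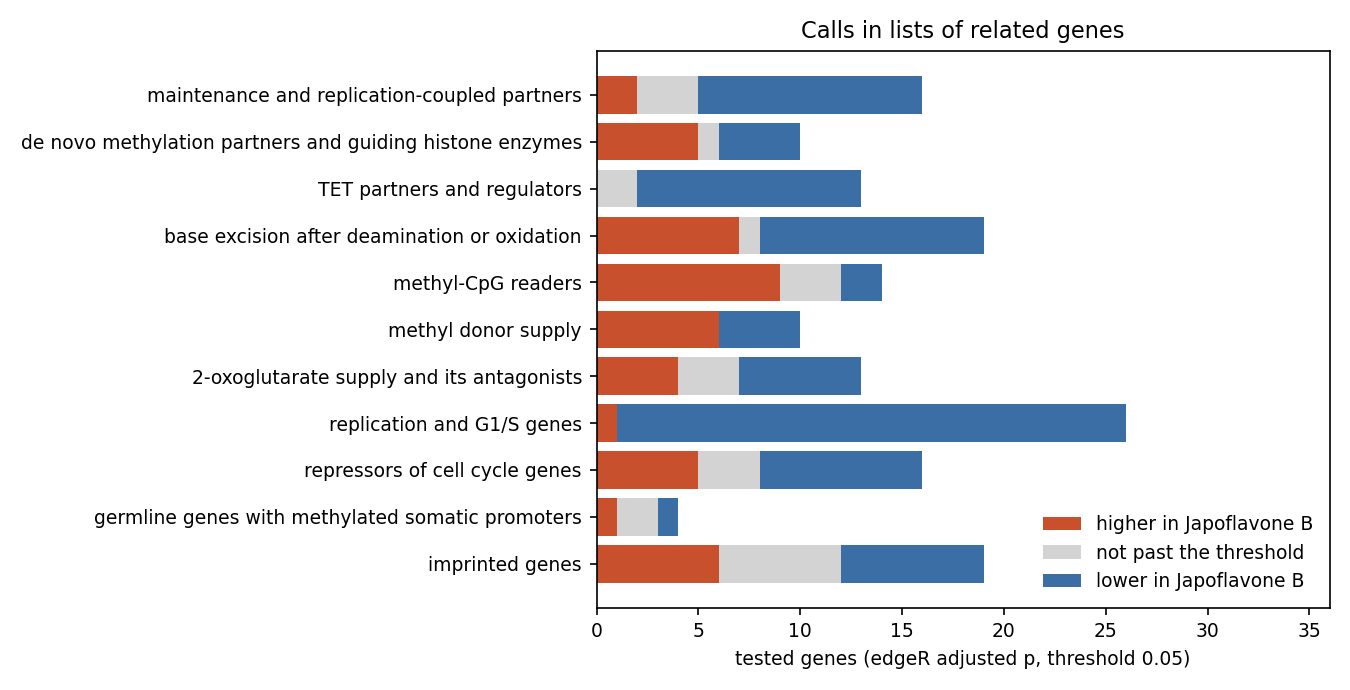
Number of tested genes (x axis) in each list of related genes that passed as higher (red), did not pass (grey) or passed as lower (blue) after Japoflavone B. Replication and G1/S genes are lower in 25 of 26 cases, TET partners have no gene called higher, and methyl-CpG readers have 9 of 14 higher. Of all genes tested, 34.7% passed as higher and 35.4% as lower.

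Genes that respond to loss of promoter methylation were looked at last. Of 30 germline genes whose promoters are methylated in most somatic cells, 26 had too few counts to be tested, in both groups. The 4 tested were TDRD12, which rose on 53 counts over the treated libraries and 28 over the DMSO libraries, HORMAD1, which fell to 1.25 ± 0.127 FPKM after Japoflavone B, against 6.26 ± 1.15 FPKM after DMSO (SD, n = 3), and MAGEA3 and MAGEA6, near-identical copies at -0.20 and -0.14 log2 that did not pass (adjusted p = 0.525 and 0.284). TDRD12 reached the count filter only with its treated libraries, so its call adds no separate support. Summed over the 30 genes there were 1063 counts after Japoflavone B and 2015 after DMSO, not scaled for depth. Most came from HORMAD1, with 162 and 888 counts, and MAGEA6, with 719 and 900. Of 19 tested imprinted genes, 6 rose, 7 fell and 6 did not pass (median -0.19 log2), near the 34.7% higher and 35.4% lower of all genes tested. GRB10 rose by 1.34 log2, PEG10 fell by 1.35, SNRPN by 0.48 and GNAS by 0.32. Counts per gene do not tell alleles apart.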

How the data were processed

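Poly(A) RNA was selected with oligo(dT) beads and primed with random primers, per the labels' protocols. Per the submitters' processing notes, the build was GRCh38 and the tools included HISAT2 2.0.1, HTSeq 0.6.1, cutadapt 1.9.1 and DESeq2. The annotation release and strand setting are not given in the sources used here. The deposited table holds raw counts per gene made by the authors, and FPKM that the authors computed from counts, exonic gene size and column total; recomputed FPKM differed by at most 0.005.

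Counts were filtered with filterByExpr (minimum count 10, minimum total 15), scaled by trimmed-mean factors and fitted with edgeR 4.0.16 in R 4.3.3 (quasi-likelihood, group as the single term), with adjustment over 16082 genes. A standard error is the log2 fold change over the root of its F statistic. Fold changes use trimmed-mean factors and FPKM use library totals. DESeq2 1.42.0 and limma 3.58.1 were alternatives. The fit was tested on simulated data. Replicate numbers did not pair libraries (correlations of deviations 0.01, -0.00 and -0.04). Members and lists were chosen with earlier results of these data known. The text names all 9 members, the 4 most abundant tested genes of each list and the 3 nearest profiles of each member; a few genes under this rule are not reported here, and other genes were chosen after their values were seen. Where a symbol stood on several rows, the row with most counts was used.
Protein sequences were not used here.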

Additional observations from a re-analysis of the deposited data

How the results depend on the processing

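Over 16 alternatives of the fit, the 8 calls among the 9 genes kept their direction, and 7 stayed past the threshold wherever the gene was tested. The exception was DNMT3A, at 0.14 log2 (adjusted p = 0.0775) and 0.20 log2 (adjusted p = 0.077) in limma on log2(FPKM + 1) and log2(FPKM + 0.1), and 0.29 to 0.33 log2 with single libraries left out; its adjusted p ran from 8.49e-04 to 0.0775. DNMT3B, TET2 and TET3 were at -1.08, -0.50 and -0.99 log2 on log2(FPKM + 1), still past the threshold. The limma filter asked for at least 1 FPKM in at least 3 libraries. DNMT3B and TET2 met it only through their DMSO libraries, so that their limma calls add no separate support. TET1 was under the filters of limma and of a mean of 2 FPKM, and DNMT3B and TET2 were under the second. UHRF1 and TET3 met the filter on the mean only through their DMSO libraries, averaging 1.74 and 1.27 FPKM after Japoflavone B. DNMT3A met it only through its treated libraries, averaging 1.99 FPKM after DMSO. The calls of these genes in that setting add no separate support either. TDG, never called, ran from -0.079 to 0.025 log2 with single libraries left out and was positive without DMSO replicate 1, at 0.025 (adjusted p = 0.774; the cause was not tested). Library totals alone shifted the median gene by -0.10 log2 and the share of calls that were higher was 42.4% there and 49.5% as reported; UHRF2 and DNMT3A stayed higher. With the replicate block, UHRF1 was at -2.84, DNMT3A at 0.31 and TDG at -0.04 log2, and no call changed. Depth limits TET1 most, with 26 counts in its lowest library.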
